A study of Mus musculus with 4 samples.

Results

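The 10 genes described here, Lep, Retn, Adipoq, Cfd, Nnat, Mest, Agt, Npr3, Slc7a10 and Rbp4, are all well known from white adipocytes, and they were measured in brown adipose tissue of mice with and without the transcription factor ATF4 in their thermogenic adipocytes. They were chosen by symbol from the 52022 genes present in the deposited files, with earlier results of the same libraries known, and the comparison of KO with WT was part of that choice. Their KO and WT values are therefore given as a description, with a standard error (SE) and no test. All 10 passed the filter on low counts. Tests are reported for the members only on the difference between library name prefixes. The choice did not use that difference itself, but it used KO against WT within each prefix, from which these tests take their residual. The tests are therefore not independent of the choice.

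The male mice sequenced were all fed ad libitum on a diet of 60% fat for 12 weeks. The KO group (ATF4 BAT KO, per the study's design text, with ATF4 lacking in thermogenic adipocytes) has 2 libraries and the WT group has 2. The sources used here do not give the construct or Cre line that removed ATF4, and no label says that the libraries are from separate animals. Every p-value below therefore measures the spread between these 4 libraries, which may be technical. The library names begin with S1 (KO 1 and WT 2) or S2 (KO 2 and WT 1), so that each prefix holds 1 library of each genotype. The labels do not explain the prefix.

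Total estimated counts were 25985367 in KO 1, 30405113 in KO 2, 32714456 in WT 1 and 34813870 in WT 2. Atf4 was at 25.0 and 24.5 CPM in KO and 29.2 and 107 CPM in WT, so that the library labelled WT 1 was near the KO level. Here CPM is a count scaled to library size, with TMM factors, and TPM is the deposited abundance, which also corrects for transcript length. The brown adipocyte list (Ucp1, Cidea, Dio2 and 9 others) summed to 13253 and 11879 TPM in KO and 11587 and 12146 TPM in WT. The sum hides genes that differ from it. Dio2, Zic1, Prdm16 and Ebf2 had both KO libraries below both WT libraries (13.1% of all genes tested), and Cox7a1 had both above (13.2%). Dio2 was at 36.9 and 68.8 CPM in KO and 113 and 80.9 CPM in WT. It was called lower in edgeR with the prefix as a block (adjusted p = 0.0132) and not without the block. The sum of 11 white depot and mesothelial markers was 14.0 and 8.57 TPM in KO and 11.1 and 6.80 TPM in WT. Of those markers 8 did not pass the filter on low counts, and 3 were at 0 counts in every library. Hoxc6, Hoxc8 and Hoxa7 passed, and each was higher in KO within S1 and lower within S2. For Hoxc8 the KO minus WT difference was 2.84 within S1 and -1.27 within S2 on the log2 scale. All 12 skeletal muscle markers were called higher in KO, with a sum of 2052 and 1923 TPM in KO and 3.12 and 3.02 TPM in WT, and the part of muscle RNA in the members' values was not tested. Mitochondrial genes held 38.9% and 33.0% of the counts assigned to genes in KO and 34.1% and 33.9% in WT. The sum of 5 blood markers was 3987 and 1998 TPM in KO and 2434 and 2478 TPM in WT. KO 1 was the highest library in both, and the bearing of this on the members was not tested.

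White adipocytes store fat in a single large droplet and release hormones. Leptin, the product of Lep, tells the brain how full the fat stores are, and its transcript tends to follow the size of the fat cell. Adiponectin, from Adipoq, is the most abundant hormone of adipocytes and usually changes in the opposite direction to fat mass. Brown adipocytes burn fuel for heat. They make adiponectin too but normally little leptin, and brown fat that fills with lipid, as under a high fat diet, takes on more of the white pattern.

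The regulatory sequence just around the start of 3 members is shown because they behave differently below: Lep, lower in KO, Adipoq, nearly level, and Rbp4, higher in KO. Each is a RefSeq window from 250 bases before to 50 after an annotated start, on the gene's own strand in build GRCm38.p6. Rbp4 has a further window, at a downstream start, which is not printed. Capitals mark matches to TTGCNNAA, the core that C/EBP factors bind, or to TGATGNAA, the composite that ATF4 binds together with a C/EBP partner.

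Lep: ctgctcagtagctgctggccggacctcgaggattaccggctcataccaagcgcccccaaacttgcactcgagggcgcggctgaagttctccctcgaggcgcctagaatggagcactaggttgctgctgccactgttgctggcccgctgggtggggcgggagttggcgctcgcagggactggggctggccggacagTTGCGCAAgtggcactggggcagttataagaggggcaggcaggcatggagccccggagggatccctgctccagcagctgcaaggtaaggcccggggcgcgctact
Adipoq: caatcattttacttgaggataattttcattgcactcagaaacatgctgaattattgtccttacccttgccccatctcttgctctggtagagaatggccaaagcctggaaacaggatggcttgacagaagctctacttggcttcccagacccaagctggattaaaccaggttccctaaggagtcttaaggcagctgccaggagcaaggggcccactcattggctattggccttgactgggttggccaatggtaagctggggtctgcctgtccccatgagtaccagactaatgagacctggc
Rbp4: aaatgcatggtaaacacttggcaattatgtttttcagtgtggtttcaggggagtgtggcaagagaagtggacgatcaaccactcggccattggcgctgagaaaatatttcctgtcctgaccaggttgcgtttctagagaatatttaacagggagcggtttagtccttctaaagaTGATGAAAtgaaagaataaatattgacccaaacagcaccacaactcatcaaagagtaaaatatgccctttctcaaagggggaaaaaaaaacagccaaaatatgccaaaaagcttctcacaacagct

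The Lep window is chr6:29059971-29060270 (plus strand), that of Adipoq chr16:23146286-23146585 (plus strand) and that of Rbp4 chr19:38125272-38125571 (minus strand). Both strands of 32851 RefSeq promoter windows were searched for exact matches. TTGCNNAA occurs in 10.8% of them and TGATGNAA in 3.97%. The Lep match lies from -55 to -48, counting the start as 0, and reads the same on both strands. Lep also holds the GC box GGGCGG, found in 35.7% of all windows. The Adipoq window has neither of these motifs and no TATAAA, which 13.6% of windows hold. The capitals in Rbp4 mark the composite, from -76 to -69. The start of this window lies outside the GENCODE gene used for the counts, which ends at 38125281. The downstream Rbp4 window, chr19:38124762-38125061, lies inside that gene and has no match to the composite. Which start the counted Rbp4 transcripts used was not tested. Among the 13 windows of the 10 members, 3 held TTGCNNAA (Lep, Mest and a downstream start of Rbp4), 1 held TGATGNAA (Rbp4) and 2 held TATAAA (Agt and the downstream Rbp4 start). These matches describe the sequence and say nothing about which factor was bound.

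Lep (ENSMUSG00000059201, chromosome 6, 29060220 to 29073877 in GENCODE vM21) was at 42.7 and 111 CPM in KO 1 and KO 2, against 302 and 181 CPM in WT 1 and WT 2. The KO libraries both lay below the WT libraries, and KO 1 was the lowest of the 4. The means were 76.7 ± 48.1 CPM in KO and 242 ± 85.1 CPM in WT (SD, n = 2 each). KO over WT was -1.65 on the log2 scale (SE 0.50). It was -1.12 without KO 1, -2.51 without KO 2, -1.24 without WT 1 and -1.98 without WT 2. Leaving out 1 library unbalances the prefixes, here and for the members below, so such values also carry the difference between prefixes. With the prefix as a block the Lep value was -1.76 (SE 0.19). That fit rests on the differences within prefixes that were part of the choice of members. Within S1 the KO library held 23.5% of the WT level and within S2 36.7%. In bulk tissue, fewer cells that make a transcript and less transcript per cell cannot be told apart.

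The sum of 8 macrophage markers was 57.1 and 175 TPM in KO and 230 and 179 TPM in WT, and that of 7 fibroblast markers 123 and 194 TPM in KO and 221 and 296 TPM in WT. KO 1 was the lowest library in both sums, as it was for Lep. All 8 macrophage genes had a log2 fold change below 0, as did 7767 of the 15643 genes tested. All 8 were lower in KO within both prefixes (26.5% of all genes). For 5 of them both KO libraries lay below both WT libraries (13.1% of all genes). None was called by edgeR, DESeq2 or limma-voom, and edgeR called 0.78% of all genes. An unadjusted edgeR p under 0.05 was found for 3 of the 8, and for 629 of all genes. Of the 7 fibroblast genes, 5 had both KO libraries below both WT libraries, and 2 had an unadjusted p under 0.05. Dpt was called lower in edgeR with the prefix as a block (adjusted p = 0.0404) and not without the block. Pi16 went the other way, at 0.41 on the log2 scale. The part of macrophages and fibroblasts in the members' values was not tested.

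Adipoq (chromosome 16, 23146536 to 23158028) was at 518 and 511 CPM in KO and 546 and 521 CPM in WT. The 4 libraries spanned a narrow range, with means of 515 ± 4.69 CPM in KO and 534 ± 17.1 CPM in WT (SD, n = 2 each). Its log2 fold change was -0.05 (SE 0.20), and KO held 99.3% of the WT level within S1 and 93.7% within S2. Retn (chromosome 8, 3655770 to 3660110), which encodes resistin, a secreted peptide of mouse white fat, was at 12.9 and 6.24 CPM in KO and 9.24 and 21.3 CPM in WT. These groups overlapped, and the S1 library was the higher one within each genotype. The KO level was 60.2% of WT within S1 and 67.5% within S2, with a log2 fold change of -0.68 (SE 0.49). Without WT 2 that value was 0.04, and with the prefix as a block it was -0.65 (SE 0.16).

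**Figure D1:**
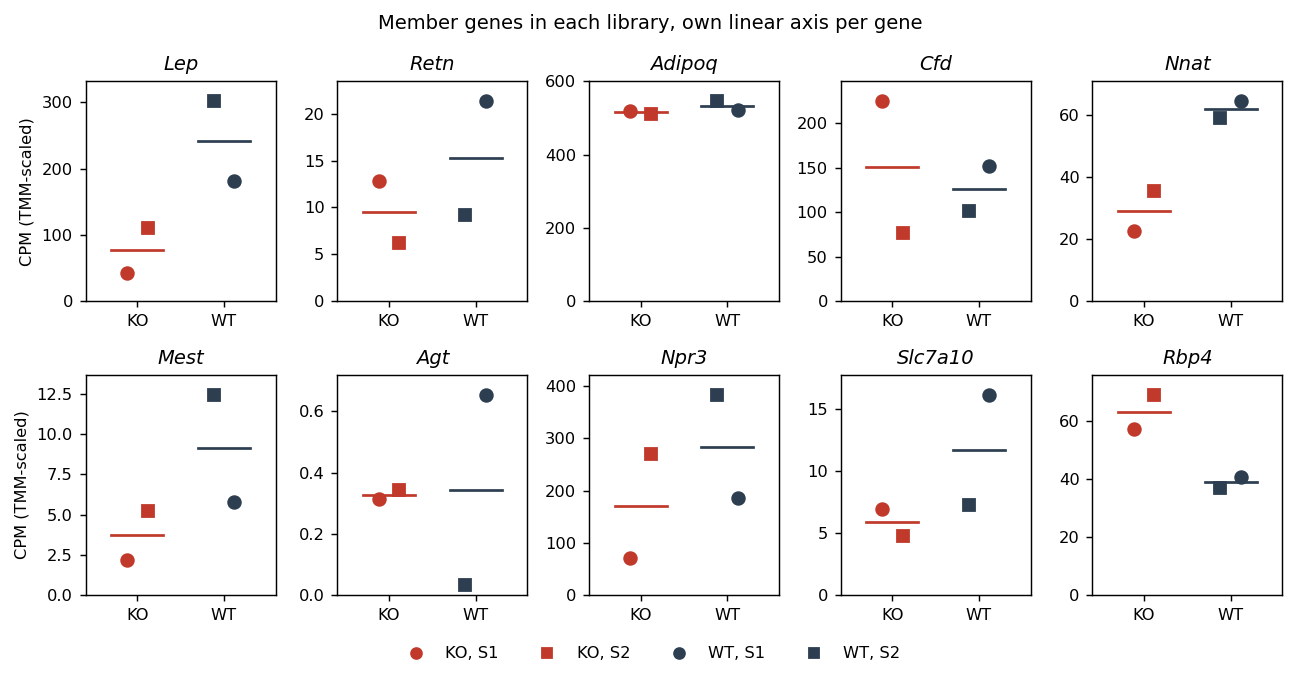
Level of each of the 10 genes in the 4 libraries (TMM-scaled CPM, a linear axis of its own from 0 for each gene), with KO at the left of each panel and WT at the right, circles for S1, squares for S2 and a horizontal line at each group mean. Lep lies lower in both KO libraries (42.7 and 111 CPM) than in both WT libraries (302 and 181 CPM), while Adipoq stays between 511 and 546 CPM in all 4.

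Cfd (chromosome 10, 79890853 to 79892655) encodes adipsin, the protease of the alternative complement pathway that adipocytes secrete. It was at 225 and 76.6 CPM in KO and 101 and 152 CPM in WT, so the KO libraries held both the highest and the lowest value. KO was at 148% of WT within S1 and 75.8% within S2. Its log2 fold change of 0.25 (SE 0.51) became -0.72 without KO 1 and 0.09 with the prefix as a block (SE 0.22). Rbp4 (chromosome 19, 38116629 to 38125281), the carrier of retinol in plasma, was at 57.2 and 69.0 CPM in KO and 36.9 and 40.7 CPM in WT. It was the sole member with both KO libraries above both WT libraries, at 63.1 ± 8.34 CPM in KO and 38.8 ± 2.67 CPM in WT (SD, n = 2 each). KO over WT was 0.70 on the log2 scale (SE 0.18). Agt, which encodes angiotensinogen, the precursor of angiotensin, had 8 and 10 counts in KO and 1 and 24 counts in WT. At this depth a difference in Agt was not detectable.

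Mest (chromosome 6, 30723547 to 30748465), an imprinted gene whose level in mouse white fat follows fat expansion, was at 2.19 and 5.21 CPM in KO and 12.4 and 5.80 CPM in WT. KO 2 and WT 2 were close, and the log2 fold change was -1.29 (SE 0.53). It became -0.64 without WT 1, -0.80 without KO 1 and -2.06 without KO 2. With the prefix as a block it was -1.32 (SE 0.21). Nnat (chromosome 2, 157560078 to 157562522), an imprinted proteolipid of the endoplasmic reticulum, was at 22.6 and 35.5 CPM in KO and 59.0 and 64.3 CPM in WT. Its groups did not overlap, its WT libraries were close to each other, and KO was at 35.1% of WT within S1 and 60.2% within S2. Mest overlaps Copg2 at its downstream end and Nnat lies inside Blcap, in both cases on the opposite strand. The library kit was stranded, but no source used here gives the strand setting of the counting. Blcap was at 66.2 and 84.7 CPM in KO and 95.5 and 67.0 CPM in WT, and Copg2 at 20.0 and 32.9 CPM in KO and 33.3 and 25.4 CPM in WT.

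At the cell surface, Npr3 (chromosome 15, 11839896 to 11907287) encodes the receptor that clears natriuretic peptides, which otherwise drive lipolysis. It was at 71.2 and 270.1 CPM in KO and 383 and 186 CPM in WT. The groups overlapped because KO 2 was above WT 2, and KO was at 38.4% of WT within S1 and 70.5% within S2. Slc7a10 (chromosome 7, 35186385 to 35201114), a transporter of small neutral amino acids found on white adipocytes, was at 6.96 and 4.76 CPM in KO and 7.26 and 16.1 CPM in WT. The log2 fold changes were -0.74 for Npr3 (SE 0.66) and -1.0003 for Slc7a10 (SE 0.42). That of Npr3 became -0.071 without KO 1 and -0.12 without WT 1, and that of Slc7a10 -0.31 without WT 2. These fits leave the prefixes unbalanced. With the prefix as a block the values were -0.94 for Npr3 (SE 0.22) and -0.92 for Slc7a10 (SE 0.20). Slc7a10 overlaps Lrp3 on the opposite strand, and Npr3 overlaps Gm5144.

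Within both prefixes, 7 of the 10 genes were lower in KO, as were 26.5% of the 15643 genes tested. Rbp4 was higher in KO within both prefixes, as were 25.4% of genes. Cfd and Agt went in opposite directions, and the Agt value within S2 rests on 1 count in the library labelled WT 1. For 5 members the KO libraries were both below the WT libraries (Lep, Adipoq, Nnat, Mest and Slc7a10), against 13.1% of all genes. For 1 member, Rbp4, they were both above, against 13.2%. The median log2 fold change was -0.71 over the members and 0.00 over all genes tested. Since KO and WT values chose the members, nothing is read from these shares. Over all genes, edgeR's quasi-likelihood test with Benjamini-Hochberg adjustment called 0.78% of genes between KO and WT at a threshold of 0.05, and 2.05% with the prefix as a block.

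**Figure D2:**
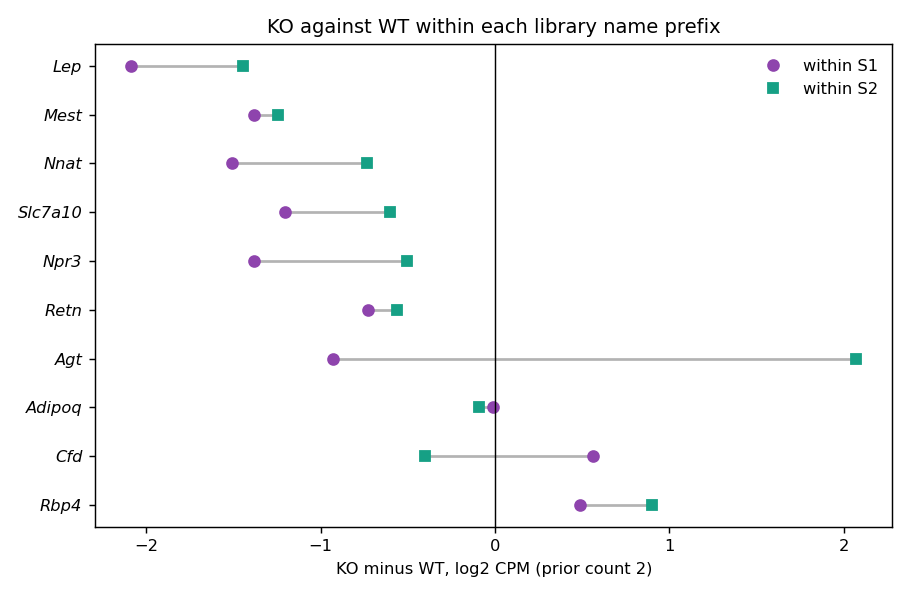
Difference between the KO and the WT library of the same prefix for each gene (log2 CPM, prior count of 2), with a circle for S1, a square for S2 and a line joining them. Lep lies farthest to the left at -2.09 within S1 and -1.45 within S2, Adipoq sits beside 0, Rbp4 lies to the right of 0 in both, and the lines of Cfd and Agt cross 0.

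The ratio of Lep to another secreted adipocyte product sets Lep against another gene in the same library. These ratios are of CPM, which is not corrected for length, so they compare libraries and not transcript numbers. Lep over Adipoq was 0.0824 and 0.216 in KO and 0.553 and 0.348 in WT. The ratio was lower in both KO libraries than in both WT libraries, with a KO minus WT difference of -2.08 on the log2 scale within S1 and -1.35 within S2. Lep over Cfd was 0.190 and 1.44 in KO and 2.99 and 1.19 in WT. Here KO 2 was above WT 2, although KO was the lower library within each prefix, by -2.65 within S1 and -1.05 within S2. Lep over Retn was 3.32 and 17.7 in KO and 32.7 and 8.497 in WT, with overlapping groups and differences of -1.36 within S1 and -0.88 within S2. Averaged over libraries, the KO minus WT differences were -1.71 for Adipoq, -1.85 for Cfd and -1.12 for Retn. Leaving out 1 library unbalances the prefixes, and the average then moved to -0.39 for Cfd without KO 1. For Retn it moved to 0.08 without KO 1 and -0.15 without WT 1.

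**Figure D3:**
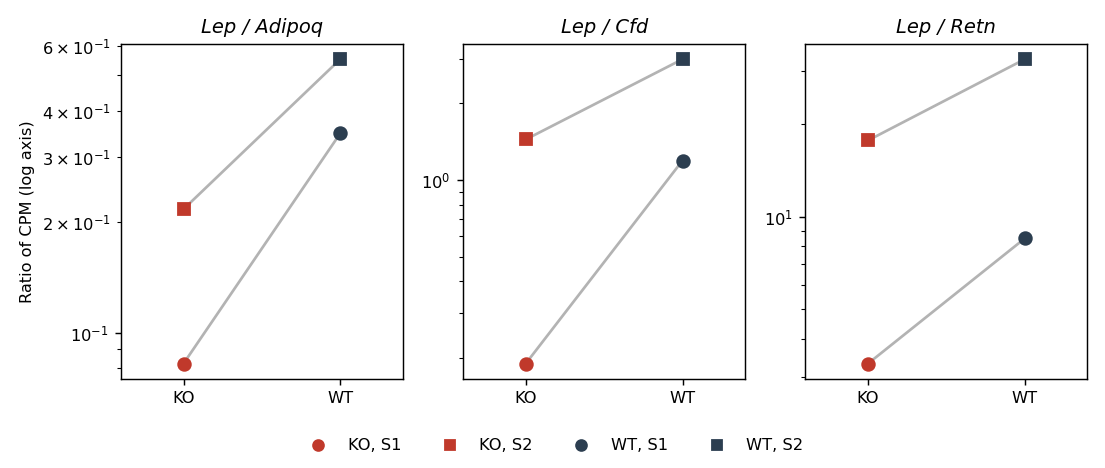
Ratio of Lep to Adipoq, Cfd and Retn in each library (ratio of CPM, log axes that differ between panels), with KO left of WT, circles for S1, squares for S2 and a line joining the 2 libraries of a prefix. Every line runs lower at the KO end, and the KO and WT points separate for Adipoq alone, at 0.0824 and 0.216 in KO against 0.553 and 0.348 in WT.

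The ratio to Rbp4 was 0.746 and 1.605 in KO and 8.17 and 4.46 in WT, a mean log2 difference of -2.46. The ratio to Mest varied least, at 19.5 and 21.2 in KO and 24.3 and 31.3 in WT, a mean log2 difference of -0.45. It was still lower in both KO libraries than in both WT libraries, by -0.71 within S1 and -0.20 within S2 on the log2 scale. Lep itself spanned a wider range, 42.7 to 302 CPM. Mest rests on 56 counts in KO 1, and both genes were chosen with their KO and WT values known.

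Between prefixes, edgeR's quasi-likelihood test with genotype in the fit called 3.14% of the 15643 genes after Benjamini-Hochberg adjustment (248 higher and 243 lower in S2), and 6 of the 10 members were among them. Npr3, Mest and Lep were higher in S2, and Retn, Cfd and Slc7a10 were lower. All of these except Cfd were lower in KO within both prefixes. Genes that shared a lower level in KO (Npr3, Mest and Lep, against Retn and Slc7a10) thus moved in both directions between prefixes. Npr3 was at 270.1 and 383 CPM in S2 (KO 2, WT 1) and 71.2 and 186 CPM in S1 (KO 1, WT 2), which is 1.48 on the log2 scale (SE 0.22, edgeR adjusted p = 0.00843). Lep was at 111 and 302 CPM in S2 and 42.7 and 181 CPM in S1, which is 1.05 on the log2 scale (SE 0.19, edgeR adjusted p = 0.0188). Within each genotype the S2 library was the higher one, by 1.37 in KO and 0.73 in WT on the log2 scale. Mest rose by 1.17 in S2 (SE 0.21, adjusted p = 0.0185 in edgeR).

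Retn was at 6.24 and 9.24 CPM in S2 and 12.9 and 21.3 CPM in S1, which is -1.13 on the log2 scale (SE 0.16, edgeR adjusted p = 0.00724). The prefixes did not overlap for Retn, nor for Cfd, at 76.6 and 101 CPM in S2 and 225 and 152 CPM in S1 (log2 fold change -1.07, SE 0.22, edgeR adjusted p = 0.0295). Slc7a10 had the weakest call, at -0.87 on the log2 scale (SE 0.20, edgeR adjusted p = 0.0492). Adipoq differed by 0.02 (SE 0.19, adjusted p = 0.961 in edgeR), Rbp4 by 0.07 (SE 0.16), Nnat by 0.25 (SE 0.19) and Agt by -1.48 (SE 0.84), and none of these passed. This fit leaves 1 residual degree of freedom among the 4 libraries, so its errors rest on variation pooled across genes. That residual is shared with the KO and WT comparison within prefixes that chose the members. The adjusted p-values of the members, and the number of them called, are therefore not independent of the choice. With no genotype term in the fit, with or without 1 library left out, none of the 10 was called. Without WT 1, the Lep difference in such a fit was -0.012. Of 7 alternatives that kept the genotype term, Mest was called in 5 and Slc7a10 in 4, and the other 4 called members in all 7.

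**Figure D4:**
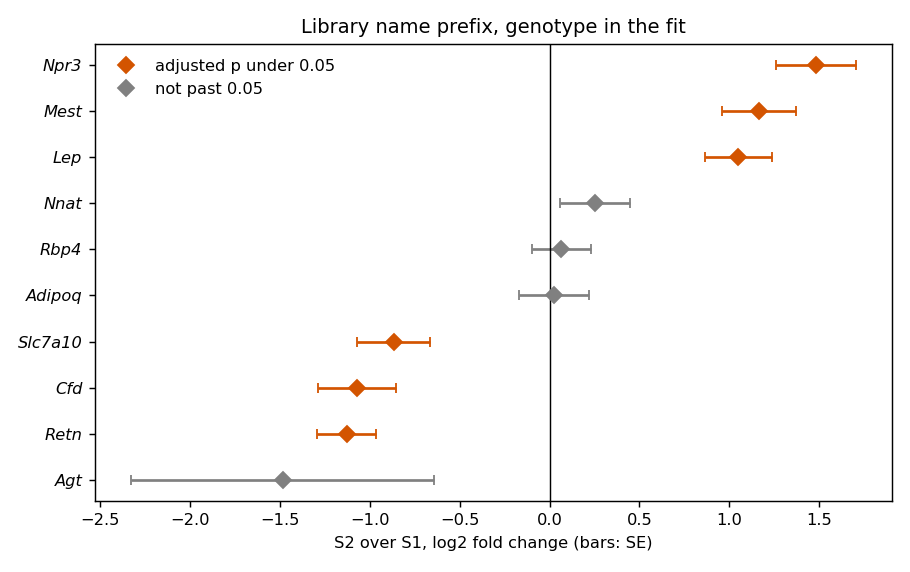
S2 over S1 for each gene, from the edgeR fit with genotype as a term (log2 fold change, bars are SE), with orange diamonds for an adjusted p under 0.05 and grey ones otherwise. Npr3, Mest and Lep lie at 1.48, 1.17 and 1.05, Slc7a10, Cfd and Retn at -0.87, -1.07 and -1.13, and Adipoq and Rbp4 beside 0.

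On the length-corrected scale, Adipoq was the most abundant member in every library, at 410 and 581 TPM in KO and 572 and 565 TPM in WT, and ranked between 143 and 200 among all genes. Cfd was the next in abundance, at 274 and 107 TPM in KO and 137 and 224 TPM in WT. Lep was at 12.7 and 43.9 TPM in KO and 115 and 75.1 TPM in WT. It ranked 3890 and 1553 among all genes in KO 1 and KO 2, against 616 and 909 in WT 1 and WT 2. Rbp4, at 64.6 and 89.9 TPM in KO and 46.5 and 55.6 TPM in WT, was above Lep in both KO libraries and below it in both WT libraries. Npr3 had 10.02 and 43.5 TPM in KO and 61.2 and 31.9 TPM in WT, close to Lep in both KO libraries. Nnat was at 21.2 and 36.2 TPM in KO and 58.1 and 72.0 TPM in WT, and Retn at 16.4 and 8.96 TPM in KO and 13.1 and 32.4 TPM in WT. Mest stayed under 8 TPM and Agt under 1 TPM in all 4 libraries.

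The transcripts behind these sums were split by kallisto, and 1 split touches Adipoq. Adipoq-202, of 539 bases, was listed at 0 counts in KO 1, at 1751 counts in KO 2 and at 1488 and 1244 counts in WT 1 and WT 2. The longer Adipoq-201 was at 410 and 407 TPM in KO and 438 and 462 TPM in WT, so KO 1 and KO 2 differed in the short transcript and not in the long one. Lep-201, of 3259 bases, held 94.4% and 79.8% of Lep TPM in KO and 81.4% and 80.4% in WT, and the short Lep-202 held the rest. Its own level was 12.0 and 34.99 TPM in KO and 93.2 and 60.3 TPM in WT, in the same order as the gene.

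The genes whose pattern over the 4 libraries was most like that of Lep were ranked by the root mean square difference of centred log2 CPM among 10934 candidates. The nearest was Jun, a subunit of the transcription factor AP-1, at a distance of 0.110, with 25.2 and 54.6 CPM in KO and 180 and 98.4 CPM in WT. Gdf15, a secreted stress hormone, was at a distance of 0.216 and Mest, itself a member, at 0.265. Atf3 (0.301), Ccn1 (0.317), Gem (0.322) and Clec4a2 (0.323) were also among the nearest. Atf3, a stress-induced transcription factor, was at 4.14 and 8.29 CPM in KO and 26.9 and 10.2 CPM in WT. Of the other members, Npr3 ranked 43 and Nnat 54, whereas Adipoq ranked 4830, Slc7a10 5648, Retn 9644, Rbp4 10327 and Cfd 10690. With 4 libraries such likeness is a description only.

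**Figure D5:**
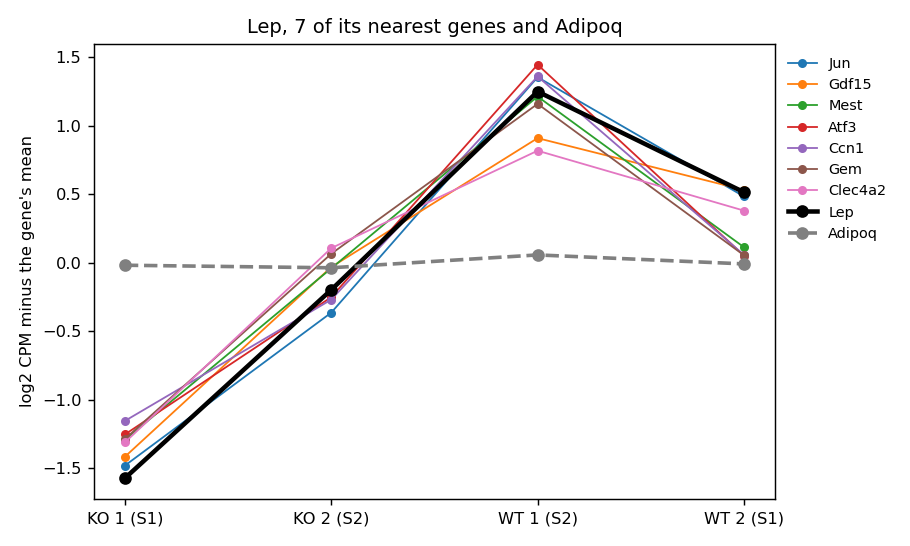
Log2 CPM minus the gene's own mean in KO 1 (S1), KO 2 (S2), WT 1 (S2) and WT 2 (S1), for Lep, 7 of the genes nearest to it and Adipoq. The lines of Lep and of these 7 genes are lowest in KO 1 and highest in WT 1, that of Adipoq is nearly flat, and Jun lies closest to Lep with a root mean square difference of 0.110.

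Genes around leptin were described from lists compiled with earlier results known. For the counts at an unadjusted p under 0.05 below, 629 of all 15643 genes tested passed that threshold in edgeR. Lepr, the leptin receptor, had 9 and 5 counts in KO and 6 and 11 counts in WT and did not pass the filter. Of the 11 tested genes of leptin signalling (Jak2, Stat3, Socs3 and others), none was called between KO and WT by edgeR, DESeq2 or limma-voom, and 0 had an unadjusted p under 0.05. Their median log2 fold change was -0.07. The lowest was that of Cish, a STAT5-induced inhibitor of cytokine signalling, at 53.7 and 8.05 CPM in KO and 42.9 and 73.8 CPM in WT (-0.92, SE 0.81, edgeR adjusted p = 0.9998). KO 2 stood apart from the other 3 libraries. Without KO 1 Cish was at -2.85 and was called (edgeR adjusted p = 0.0170), without KO 2 it was at -0.13, and with the prefix as a block it was at -1.39 (edgeR adjusted p = 0.107). Socs3, which is induced by leptin and blocks its receptor, was at 2.11 and 2.71 CPM in KO and 4.84 and 2.15 CPM in WT. The 13 genes known to regulate transcription of Lep, among them Cebpa, Pparg and Sp1, had a median of -0.06, with none called by the 3 tools and 0 at an unadjusted p under 0.05. The AP-1 member Fosl2 was at 22.0 and 44.8 CPM in KO and 68.1 and 35.2 CPM in WT, and the lipogenic factor Srebf1 at 237 and 142 CPM in KO and 241 and 283 CPM in WT.

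Of 16 tested receptors and partners of the members' products, none was called by edgeR, DESeq2 or limma-voom, and 1 had an unadjusted p under 0.05. It was Cfb, the complement factor that adipsin cleaves, at 6.13 and 10.9 CPM in KO and 14.3 and 18.9 CPM in WT (log2 fold change -0.96, SE 0.32, edgeR adjusted p = 0.955). Of 14 tested other adipokines, none was called by edgeR without a block or by limma-voom, and 3 had an unadjusted p under 0.05. The growth factor Igf1 was at 5.71 and 6.41 CPM in KO and 11.6 and 15.3 CPM in WT, and KO over WT was -1.15 on the log2 scale (SE 0.22, edgeR adjusted p = 0.172). It fell by 1.14 with the prefix as a block (edgeR adjusted p = 0.0103), and it was called lower by DESeq2. Sfrp5, a secreted Wnt inhibitor, was at 1.64 and 1.95 CPM in KO and 3.86 and 2.69 CPM in WT.

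None of the 6 genes tied to fat tissue expansion was called by edgeR, DESeq2 or limma-voom, with 2 at an unadjusted p under 0.05 and a median log2 fold change of -0.19. Bmp3 was the lowest of them, at 0.430 and 0.925 CPM in KO and 2.17 and 1.82 CPM in WT. Among 11 tested genes that are imprinted or neighbour Nnat and Mest, H19, a noncoding RNA of fetal tissue and muscle, rose to 31.5 and 29.3 CPM in KO, against 0.350 and 0.272 CPM in WT (log2 fold change 6.60, SE 0.24, edgeR adjusted p = 0.000391). It was the sole one called, and the muscle markers above moved with it. The median of that list, which does not include Mest or Nnat, was 0.10. Its member Peg3 was at 88.7 and 47.0 CPM in KO and 36.2 and 38.5 CPM in WT, and without KO 2 it was called higher (edgeR adjusted p = 0.0356). Of 18 genes that white and brown adipocytes share, none was called by edgeR, DESeq2 or limma-voom and 1 had an unadjusted p under 0.05, with a median of -0.06. That gene was G0s2, an inhibitor of lipolysis, at 313 and 200.4 CPM in KO and 426 and 402 CPM in WT.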

How the data were processed

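TRIzol-extracted RNA was purified on RNeasy columns and made into stranded TruSeq mRNA libraries, per the labels' protocols. Per the submitters' processing notes, kallisto 0.45.0 and build mm10 were used, with no strand setting named. The authors deposited, per the file headers, an estimated count and a TPM value for each of 141450 transcripts per library. Between 87.4 and 88.5% of the non-zero estimated counts were not whole (tolerance 1e-06).

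Transcripts were assigned to genes with GENCODE vM21 (GRCm38), which matched 138191. The 3259 unmatched ones held 0.992 to 1.04% of counts and were left out. Counts were summed per gene and rounded. Groups came from the genotype labels. KO was compared with WT in edgeR 4.0.16 (R 4.3.3, quasi-likelihood, TMM, filterByExpr with a minimum count of 10 and a minimum total of 15), with genotype as the sole term. S2 was compared with S1 with genotype in the fit. P-values were adjusted over 15643 genes. Log2 CPM values used a prior count of 2. The tests were tried on simulated counts. No 2 libraries agreed within sampling noise (chi-square per gene 33.8 or more). Depth was 25985367 to 34813870 estimated counts per library, and Agt rests on 1 to 24 of them.

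Alternatives were DESeq2 size factors, no filter, 1 CPM in 2 libraries, the replicate number or the prefix as a block, no mitochondrial genes, limma 3.58.1 on log2(TPM + 1), limma-voom, DESeq2 1.42.0 and leaving out each library. For S2 over S1, leaving out a library also removed the genotype term.

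Members and gene lists were chosen with earlier results of these data known. Named genes were the members, Atf4, up to 3 genes of smallest p in each list with any gene called, and the 8 nearest to Lep, of which 1 is not reported here. Genes named as examples of a list and genes overlapping a member were added for their identity, and Fosl2, Adgre1, Csf1r and Lyz2 in the prefix comparison after their values were seen. Promoters came from RefSeq (GRCm38.p6).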

Additional observations from a re-analysis of the deposited data

Results flagged for a closer look

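Cfd, which encodes adipsin, differed between KO and WT in opposite directions in the libraries of each prefix. Within S2 it was at 76.6 CPM in KO 2 and 101 CPM in the library labelled WT 1, a log2 CPM difference of -0.40. Within S1 it was at 225 CPM in KO 1 and 152 CPM in WT 2, a difference of 0.56. The S2 difference minus the S1 difference was -0.96. This difference was not tested, because 1 library of each genotype per prefix leaves no replicate for it.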

How the results depend on the processing

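The 122 genes called between KO and WT became 457 with no filter, 320 with the prefix as a block, 218 with DESeq2 and 158 to 235 with 1 library left out (185 without KO 2, 235 without WT 2). With a replicate block the count was 164. Same-numbered libraries deviated in opposite directions (correlation -0.38), and the crossed pairing of the numbers is the prefix block. The 491 genes called between S2 and S1 became 1446 with no filter, 1 with no genotype term and 0 to 1 with 1 library left out. For S2 over S1 with 1 library left out, Lep ranged from -0.012 (without WT 1) to 2.28, Adipoq from -0.016 to 0.08, Nnat from -0.44 to 1.07 (-0.29 without WT 1) and Rbp4 from -0.40 to 0.50 (-0.11 without WT 2). Under the 7 alternatives that kept the genotype term and all libraries, Lep, Retn, Cfd and Npr3 were called in 7, Mest in 5 and Slc7a10 in 4.

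KO over WT with 1 library left out lay between 0.55 and 0.83 for Rbp4, between -2.01 and -0.071 for Npr3, between -2.51 and -1.12 for Lep, between -1.46 and -0.79 for Nnat, between -1.46 and -0.31 for Slc7a10 and between -2.06 and -0.64 for Mest. Retn reached 0.04 without WT 2, and Cfd ranged from -0.72 to 0.82. Each of these fits leaves the prefixes unbalanced. Lep over Adipoq stayed between -2.41 and -1.02. With 1 library left out, Socs3 spanned -1.01 to 0.17 (without WT 1) and Slc2a4 spanned -0.54 to 0.019 (without KO 1), and Aqp7 was at -0.031 with limma on log2(TPM + 1). With no filter edgeR also called Cish, Cfb, Igf1, Bmp3 and Peg3, each in its direction with the filter. Agt, with 1 to 24 counts, is the member that depth limits most.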

Other observations

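Genes outside the 10 also differed between the library name prefixes, in the edgeR quasi-likelihood fit with genotype as a term. Among the 13 genes known to regulate transcription of Lep, 1 was called. It was Fosl2, at 44.8 and 68.1 CPM in S2 and 22.0 and 35.2 CPM in S1 (log2 fold change 0.99, SE 0.15, edgeR adjusted p = 0.00887). Of 8 macrophage markers, 3 were called higher in S2, Adgre1 by 1.43, Lyz2 by 1.16 and Csf1r by 1.12 on the log2 scale (edgeR adjusted p = 0.0201, 0.0164 and 0.0283). The rest were not called, and Cd68 (-0.13) and Gpnmb (-0.30) went the other way. The summed macrophage level was 175 and 230 TPM in S2 and 57.1 and 179 TPM in S1. Of these sums, Lyz2 alone held 137 and 186 TPM in S2 and 40.2 and 119 TPM in S1. Of 5 endothelial markers, 2 were called lower in S2. Fosl2, Adgre1, Lyz2 and Csf1r were chosen after their values were seen, and none of them was called with no genotype term in the fit. Their part in the higher Lep, Mest and Npr3 levels of the S2 libraries was not tested.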
